A study of Caenorhabditis elegans with 2 samples.

Results

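The 39 genes described here encode the machinery that builds and serves the sensory cilium of Caenorhabditis elegans, or control it. They were taken from a list of names, and all 39 matched a protein-coding gene of the annotation, out of 19973 such genes on chromosomes I to V and X. They comprise 13 genes of intraflagellar transport complex B (IFT-B), 3 of complex A (IFT-A), 6 transport motor genes, 6 genes of the BBSome, 5 transition zone genes and 6 others. The others are che-12, dyf-5, dyf-7, dyf-17, arl-13 and daf-19. Chromatin immunoprecipitation and sequencing (ChIP-seq) located FKH-10, a transcription factor of the forkhead family, in whole L1 larvae of mixed sex. The study held 1 group of 2 biological replicates from separate biosamples and no second condition. Both came from the transgenic strain OP337, which carries the unc119 allele ed3 and the insertion wgIs377. The insertion holds fkh-10::TY1 EGFP FLAG, so that FKH-10 has a tag at its C terminus, together with unc119. What drives the transgene is not given in the sources used here, and of the antibody the labels give no more than its target, fkh-10. Larvae were profiled whole, so a peak does not say in which cells FKH-10 was bound, and expression was not measured.

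In the worm, cilia sit at the dendrite tips of sensory neurons and carry the receptors for smell, taste, temperature and touch. Intraflagellar transport moves cargo along the ciliary axoneme: kinesin motors carry IFT trains to the tip and a dynein brings them back, while the BBSome links membrane proteins to the trains and the transition zone gates the base. Most of these genes are known to be switched on by DAF-19, the worm RFX factor, which binds a promoter element called the X-box. Forkhead factors take part in ciliogenesis in several animals, and in worm sensory neurons the forkhead factor FKH-8 is known to act with DAF-19.

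The sequences below are those on which the results turn: stretches of 101 bases centred on the summit at klp-11, at daf-19 and at dyf-11, and X-box sites of 30 bases. They are from the RefSeq copy of WBcel235, 5′ to 3′ on the strand of the gene, and capitals mark a matched word. In the 101-base stretches the capitals are an X-box at dyf-11 and the reverse complement of GAGAGAGA at daf-19, and klp-11 held no searched word.
klp-11 summit, chrIV:8762557-8762657, minus strand: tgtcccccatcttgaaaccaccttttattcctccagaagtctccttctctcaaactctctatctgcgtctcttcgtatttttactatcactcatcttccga
daf-19 summit, chrII:10169455-10169555, minus strand: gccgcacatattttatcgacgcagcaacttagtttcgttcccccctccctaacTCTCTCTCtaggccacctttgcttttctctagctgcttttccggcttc
dyf-11 summit, chrX:763527-763627, plus strand: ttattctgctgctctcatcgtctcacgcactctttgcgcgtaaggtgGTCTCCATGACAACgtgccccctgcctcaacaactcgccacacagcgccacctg
The next 4 sites are X-boxes, in capitals, at members that also had a listed summit, the first 3 of them within 100 bp of that summit and that of dyf-13 farther away.
dyf-3 X-box, chrIV:3399190-3399219, minus strand: tgcagggaGTTTCTATGGGAACggaggaaa
osm-12 X-box, chrIII:12202536-12202565, minus strand: cagctcatGTTGCCATAGTAACtcgacaac
daf-19 X-box, chrII:10169409-10169438, minus strand: caattttgGTTTCCATGGAAACtacttcca
dyf-13 X-box, chrII:7171353-7171382, minus strand: gcattcaaGTCTCCATAGCAACacgtcaag
For contrast, osm-6 and xbx-1 had an X-box close to the start and no pooled summit in the promoter window.
osm-6 X-box, chrV:11927485-11927514, minus strand: atccacatGTTACCATAGTAACcactcatt
xbx-1 X-box, chrV:14980267-14980296, plus strand: gaacgcccGTTTCCATGGTAACcgtcattt

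A promoter window covered the 1000 bp before and the 200 bp after the annotated gene start, and a gene was counted when the summit of a peak lay in it. The authors deposited an optimal set of 2602 peaks, thresholded by irreproducible discovery rate, a pooled list of 19924 and replicate lists of 28842 and 28896. The pooled and replicate lists are labelled as peaks and background that served as input for that threshold, so a summit found only there is a listed position, not a called one. The optimal peaks were the pooled peaks of highest signal, from 37.0 to 457, and pooled signals went down to 12.4. Each peak's signal is a value set by the authors whose scale is not given, and the lists hold no read counts, so the depth is unknown. Ranks count from the highest signal. In 99.0% of pooled peaks the summit lay at the middle of the interval, which had a median width of 376 bp, so distances of a few bp are not resolved.

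FKH-10 had an optimal promoter summit at 3 of the 39 cilium genes: klp-11, a kinesin-II motor subunit, daf-19, the RFX factor itself, and dyf-3, an IFT-B subunit. That is 7.69% of the list (95% Clopper-Pearson interval 1.62 to 20.9%, covering the sampling of genes only), against 6.38% of all protein-coding genes (1275 of 19973). The share is near the background and is not a result about cilium genes. In the pooled list 17 of 39 had a promoter summit (43.6%, interval 27.8 to 60.4%), against 28.0% of all protein-coding genes (5588), and 14 of these 17 lay below the optimal threshold. The other 22 had none. In the whole replicate lists the counts were 23 of 39 in replicate 1 (59.0%, background 35.8%) and 17 of 39 in replicate 2 (43.6%, background 35.6%). Of the members, 10 were listed in both replicates (25.6%, against 19.6% of all genes), 13 in replicate 1 alone (33.3%, against 16.1%) and 7 in replicate 2 alone (17.9%, against 16%). In neither replicate were 9 members listed (23.1%, against 48.3%). The pooled share was above the background while the optimal share was near it, and both are descriptions with no test.

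**Figure D1:**
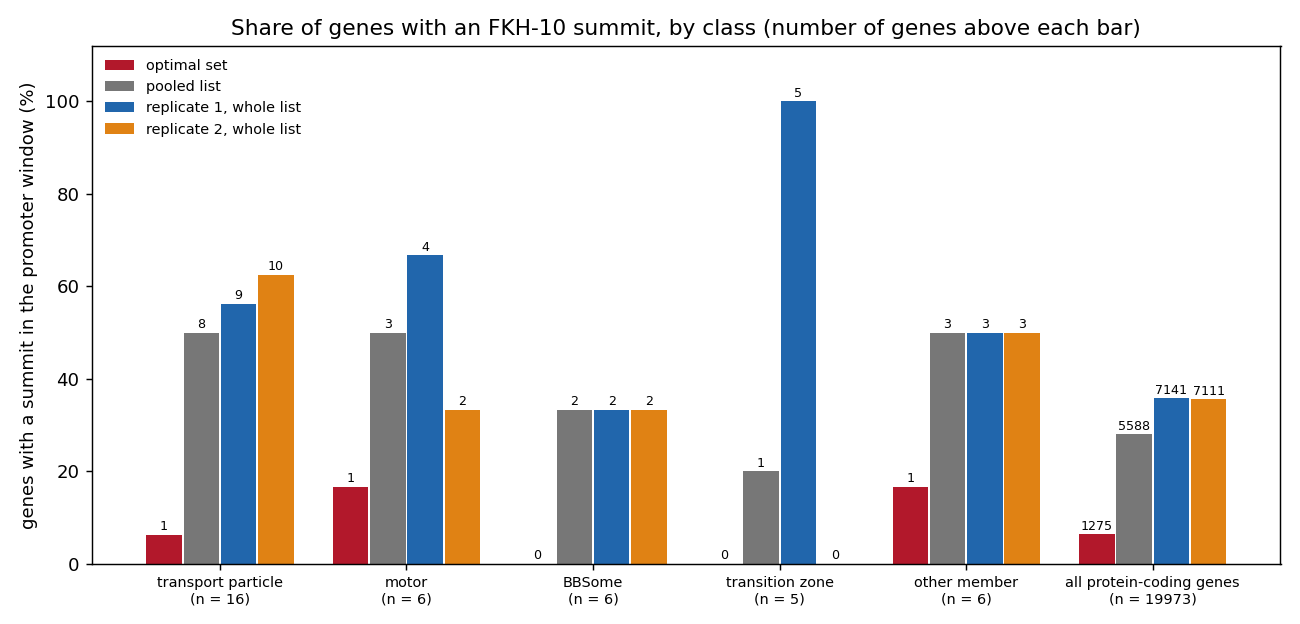
Percentage of genes with an FKH-10 summit in the promoter window (y axis), for each class of cilium genes and for all protein-coding genes (x axis), in the optimal set, the pooled list and the whole list of each replicate; the number of genes stands above each bar. The optimal bars hold 0 or 1 gene in every class, and the transition zone genes had 5 of 5 in replicate 1 and 0 of 5 in replicate 2.

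The kinesin-II genes klp-11 and klp-20 carried the highest signals among the optimal peaks inside the members or within 2000 bp upstream of them. The gene klp-11 (WBGene00002222) had its summit on chromosome IV at 8762607 (peak 8762419 to 8762794), in intergenic sequence 541 bp upstream of the start. Its signal was 105 in the pooled list (rank 405), 62.7 in replicate 1 (rank 291) and 36.7 in replicate 2 (rank 851). It ranked among the 2602 highest in each replicate alone, and the replicate summits lay 8 and 3 bp from the pooled one. The overlapping gene F20C5.11 starts 70 bp from klp-11 on the same strand, so the summit, 611 bp upstream of F20C5.11, also counts for that gene.

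A second optimal peak lay inside klp-11, in a coding exon 3223 bp from the start (chromosome IV, 8758655 to 8759030). This peak also lay within the span of the overlapping gene F20C5.11. Its signals were 54.7 pooled (rank 1557), 27.2 in replicate 1 and 30.4 in replicate 2. A further pooled summit 4100 bp from the start, in an intron and also within F20C5.11, had a signal of 36.2 (rank 2693), just under the lowest optimal signal of 37.0. The locus thus held both the strongest promoter peak of the list and an optimal peak in the gene.

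The other motor subunit of kinesin-II, klp-20, had no summit in its promoter window in the pooled list, but only by a short distance. An optimal peak (chromosome III, 208783 to 209158) had its summit 1021 bp upstream of klp-20, 21 bp outside the window, in an intron of F40G9.17. Its signal was 69.2 pooled (rank 1045), 44.7 in replicate 1 (rank 737) and 21.5 in replicate 2 (rank 2035). The replicate summits lay 981 and 980 bp upstream, inside the window, so klp-20 was counted from the 2602 top peaks of each replicate and not from the optimal set. Those top peaks gave 3 members in either replicate, klp-11, daf-19 and klp-20, against 5.91% of all genes in replicate 1 and 6.57% in replicate 2. A second optimal peak lay in an intron of klp-20, 1591 bp from the start, with a signal of 57.8 pooled (rank 1409), 33.3 in replicate 1 and 24.6 in replicate 2. Both kinesin-II motor subunit genes therefore had 2 optimal peaks between the upstream region and the gene body, each also among the top peaks of both replicates. This region is wider than the promoter window, and klp-20 is a long gene (209992 to 230450). The share of all genes with 2 such peaks is not given here, so the count describes these loci and is not a result about kinesin-II.

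Of the 6 motor genes, 1 had an optimal promoter summit and 3 a pooled one (16.7 and 50%, backgrounds 6.38 and 28.0%), and those other than klp-11 and klp-20 stood far lower. The accessory subunit gene kap-1 had a pooled signal of 16.5 (rank 10086) in its own intron, 113 bp downstream of the start, with 9.01 in replicate 1 and 5.44 in replicate 2. The homodimeric kinesin gene osm-3 had 13.9 (rank 15275), with 10.6 in replicate 1 and no overlapping peak in replicate 2, at a summit 508 bp upstream in the 3′ UTR of algn-14. Inside osm-3 were 3 pooled summits, the highest in an intron 2101 bp from the start. It had 25.8 pooled (rank 4134), below the optimal threshold, 21.4 in replicate 1 (rank 2662) and 5.53 in replicate 2 (rank 21747). The dynein genes che-3 (heavy chain) and xbx-1 (light intermediate chain) had no promoter summit in the pooled list. Inside che-3 were 5 pooled summits with signals from 12.7 to 18.6, below the optimal threshold.

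The gene daf-19 (WBGene00000914) had an optimal summit on chromosome II at 10169505 (peak 10169317 to 10169692), intergenic, 159 bp upstream of the start of its long transcripts. The signal was 51.5 pooled (rank 1689), 22.1 in replicate 1 (rank 2520) and 27.4 in replicate 2 (rank 1445), within the 2602 highest of each replicate. The summit of replicate 2 was at the pooled position and that of replicate 1 was 94 bp away. No other protein-coding window held it.

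The gene spans 11827 bp and its annotated transcripts start at several points. The long DAF-19A and DAF-19B proteins are known from neurons without cilia and the shorter DAF-19C from ciliated ones. Transcripts a and b start at the 5′ end, transcript d 4894 bp, transcript e 5770 bp and transcript c 7673 bp downstream. Inside the gene lay 8 pooled summits, none of them optimal, a number reached by 124 protein-coding genes (0.621%), with no account taken here of gene length. The strongest, at 10161935 in an intron, was 262 bp upstream of the start of transcript c. Its signal was 30.4 pooled (rank 3338), 17.7 in replicate 1 (rank 3771) and 11.9 in replicate 2 (rank 4597). The summit at 10163054, 522 bp into transcript e, had 24.4 pooled, 18.4 in replicate 1 and 6.07 in replicate 2, and the one at 10166062 had 23.7 pooled, 21.9 in replicate 1 and no overlapping peak in replicate 2. The called peak was thus at the start of the long transcripts, and the summit beside the start of transcript c was below the threshold in the pooled list and outside the 2602 highest in each replicate.

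**Figure D2:**
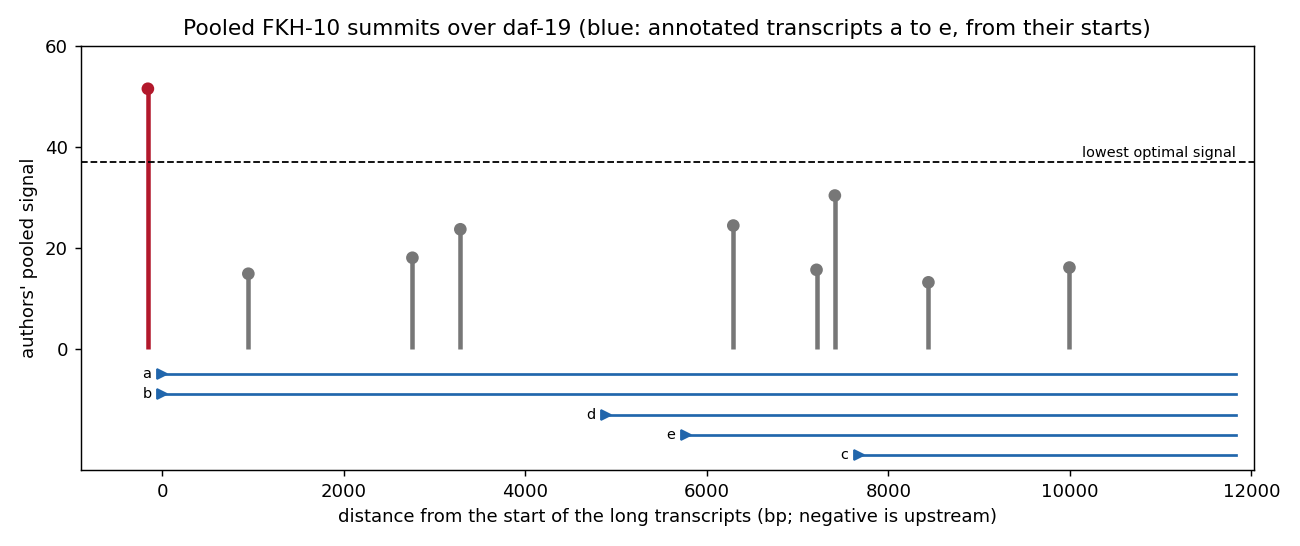
Pooled FKH-10 summits over daf-19, by distance from the start of the long transcripts (x axis, bp) and the authors' pooled signal (y axis); red is the optimal peak, grey the peaks below the optimal set, the dashed line the lowest optimal signal of 37.0, and blue lines the annotated transcripts. The peak of 51.5 lies 159 bp upstream of transcripts a and b, and the next highest, 30.4, lies 262 bp upstream of transcript c.

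Of the 16 transport particle genes, 1 had an optimal promoter summit (6.25%, at the background of 6.38%) and 8 a pooled one (50%, background 28.0%). The gene dyf-3 (WBGene00001119), worm homologue of the IFT-B protein CLUAP1, had its summit on chromosome IV at 3399205 (peak 3399017 to 3399392), in its 5′ UTR 26 bp downstream of the start. The signal was 38.0 pooled (rank 2516), close to the lowest optimal signal, 20.2 in replicate 1 (rank 2947) and 17.3 in replicate 2 (rank 2732). It was below the 2602 highest in each replicate alone and entered the optimal set only in the pooled ranking. The replicate summits lay 27 and 84 bp from the pooled one. The divergent neighbour pdhb-1, which encodes the beta subunit of pyruvate dehydrogenase, starts 441 bp away, and the summit, 467 bp upstream of it, counts for both genes.

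Below the threshold, dyf-11, the worm TRAF3IP1 homologue and an IFT-B subunit gene, came closest. Its summit lay in intergenic sequence on chromosome X at 763577, 175 bp upstream of the start, with a pooled signal of 31.2 (rank 3218), 16.3 in replicate 1 (rank 4618) and 16 in replicate 2 (rank 3038). The replicate summits were 21 and 0 bp from the pooled one. The IFT-A gene dyf-2 followed with 26.7 pooled (rank 3941), 15.6 in replicate 1 and 12.7 in replicate 2, 135 bp upstream, in a window shared with the cullin gene cul-2. The replicate summits of dyf-2 lay 163 and 143 bp from the pooled one, 298 bp upstream and 8 bp downstream of the start. The replicates thus placed the dyf-11 summit alike and the dyf-2 summit on opposite sides of the pooled one, and neither gene was in the optimal set.

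The IFT-B subunit gene ift-81 had a pooled signal of 26.4 (rank 3976), with 16.5 in replicate 1 and 8.03 in replicate 2. Its summit lay 299 bp upstream, in an intron of ags-3, and a second summit 98 bp upstream had 13. The IFT-B gene dyf-6 had 22.2 (rank 5253), with 10.7 in replicate 1 and 9.55 in replicate 2, 12 bp downstream of the start in its 5′ UTR. The last 3 IFT-B genes were each lower and less even between replicates. The value of dyf-13 was 14.6 pooled, 12.3 in replicate 1 and 5.56 in replicate 2; of ift-20, 13.9 pooled and 11.3 in replicate 2, with no overlapping peak in replicate 1; and of che-13, 13.4 pooled and 13.1 in replicate 1, with none in replicate 2. The ift-20 summit was in the 3′ UTR of the neighbouring gene C30F8.3, and the dyf-13 summit, 601 bp upstream, lay within 500 bp of the snRNA gene C27H5.11. No pooled promoter summit was found at osm-1, osm-5, osm-6, che-2, dyf-1 or ift-74 among the IFT-B genes, or at the IFT-A genes che-11 and daf-10. Of these, osm-6 (8.32) and che-2 (7.63) were listed in replicate 1 alone, and osm-5 (7.89), dyf-1 (8.56) and daf-10 (7.88) in replicate 2 alone. The genes osm-1, ift-74 and che-11 were in neither. Farther out, an optimal peak lay 1668 bp upstream of che-13, in the window of F59C6.18, with a signal of 43.8 pooled, 27.4 in replicate 1 and 20.2 in replicate 2.

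The −log10 q values deposited with the pooled peaks followed the same order. At klp-11 and daf-19 they were 3.57, the top value in the list. That value was tied over 1868 pooled peaks, so q does not order klp-11 and daf-19. The next values were 3.0 at dyf-3, 1.97 at dyf-11, 1.29 at dyf-2 and 1.25 at ift-81. At the other 11 members with a pooled summit the highest value was 0.721, at dyf-6, and the lowest 0.0256, at osm-12. The 3 called genes thus had the highest values, with dyf-11 next. Signal and q belong to the same pooled peaks, so this order is not separate support for the calls.

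**Figure D3:**
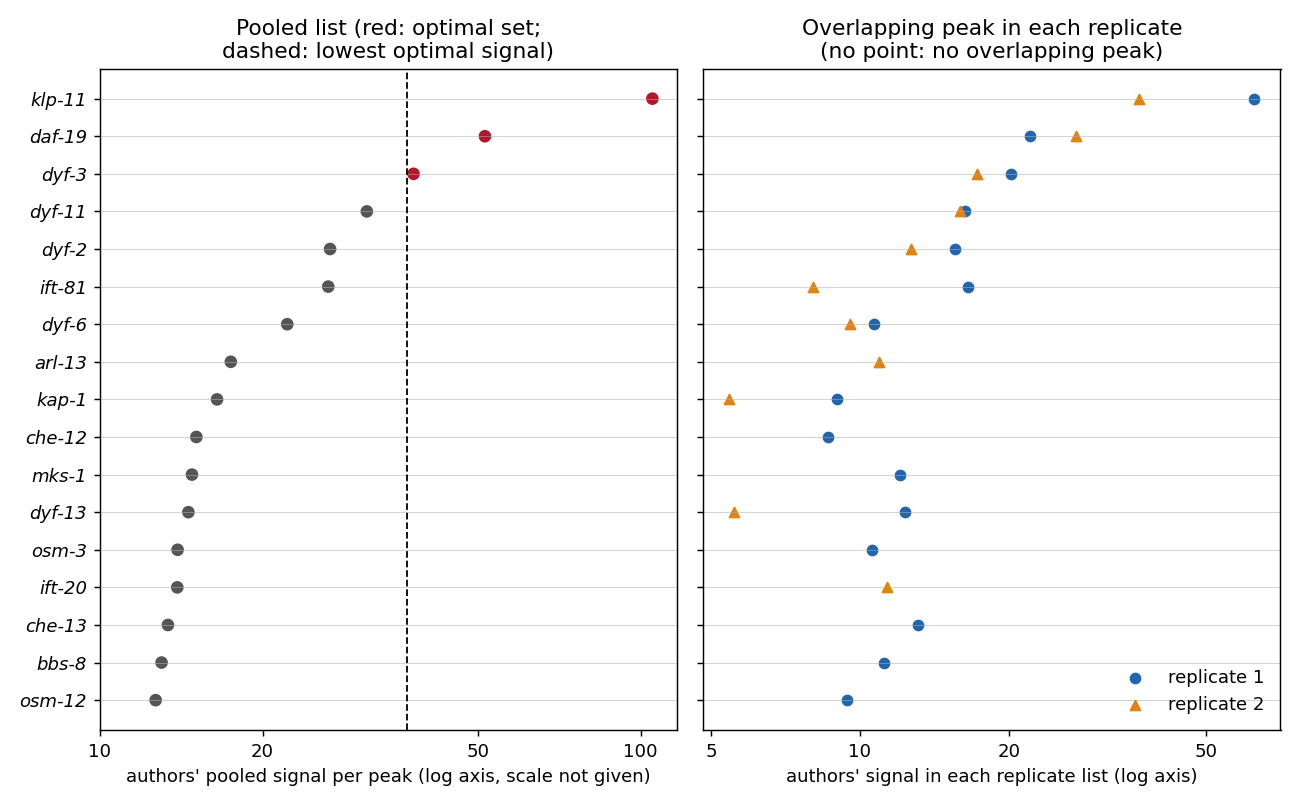
Authors' signal of the highest promoter peak of each of the 17 members with a pooled summit (log axes), in the pooled list on the left and for the overlapping peak of each replicate on the right. The 3 optimal genes (red) lie at or above 38.0, dyf-11 follows at 31.2, and no point is drawn where a replicate had no overlapping peak.

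None of the 6 BBSome and 5 transition zone genes among the members had an optimal promoter summit. Finding 0 genes leaves room, at 3 over the number of genes, for a share of up to 50% of the BBSome genes and 60% of the transition zone genes. Classes of this size therefore cannot be set apart from the background. In the second list, given below, 2 of 15 transition zone and basal body genes had an optimal summit (13.3%, background 6.38%). In the pooled list 2 of 6 BBSome genes (33.3%) and 1 of 5 transition zone genes (20%) had a summit, against 28.0% of all. Among BBSome genes, bbs-8 had a pooled signal of 13 (rank 17907) and 11.2 in replicate 1, at a summit 866 bp upstream in the 3′ UTR of clik-1. The BBS7 homologue osm-12 had 12.7 (rank 18927), the lowest of the list, and 9.43 in replicate 1. Neither had an overlapping peak in replicate 2, where bbs-5 (6.34) and bbs-9 (5.50) were listed instead, so no BBSome gene was listed in both replicates. None was found at bbs-1 or bbs-2 in either replicate.

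The transition zone genes were listed in replicate 1 alone. All 5 had a promoter summit there, against 35.8% of all protein-coding genes, with signals of 12.1 at mks-1, 9.47 at mksr-1, 8.91 at nphp-1, 8.40 at nphp-4 and 7.95 at mksr-2, ranks 10099 to 26364 of 28842. In replicate 2 none of the 5 had one, against 35.6% of all genes. In the pooled list mks-1 alone had a summit, with a signal of 14.8 (rank 13146), in intergenic sequence 644 bp upstream. The signals in replicate 1 were near the lowest of its list, 7.56, and its median, 10.5. The replicate lists include background by design, and these positions were not set apart from it here.

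Of the other members besides daf-19, the small GTPase gene arl-13 had a pooled signal of 17.5 (rank 8765), 16 bp downstream of the start, and 10.9 in replicate 2 with no overlapping peak in replicate 1. The gene che-12, whose HEAT-repeat protein is needed for normal amphid cilia, had 15.1 (rank 12502), 203 bp upstream, and 8.62 in replicate 1 with no overlapping peak in replicate 2. The gene dyf-17 had no pooled summit and was listed at 7.89 in replicate 1 and 5.05 in replicate 2, at summits 514 and 236 bp upstream. The kinase gene dyf-5, which sets cilium length, and dyf-7, whose zona pellucida domain protein anchors dendrite tips, had no promoter summit in any list.

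**Figure D4:**
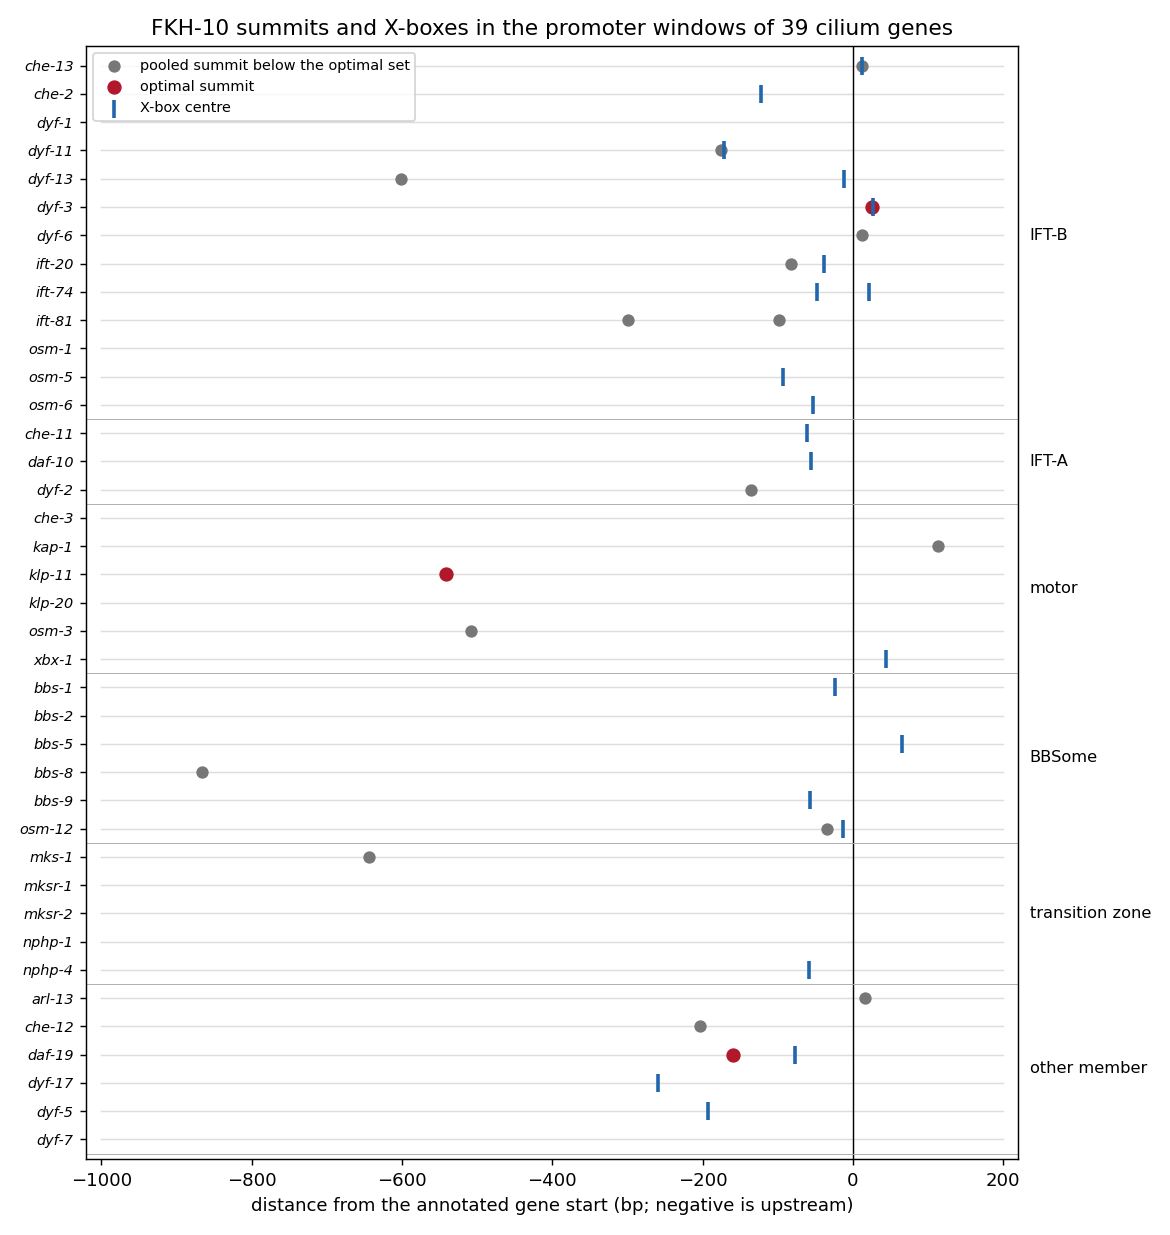
Summits of pooled peaks in the promoter windows of the 39 cilium genes, by distance from the annotated gene start (x axis, bp; negative is upstream), with optimal summits in red and other pooled summits in grey; blue marks are X-box centres. Both X-boxes and summits lie mostly near the starts, and some summits lie up to 866 bp upstream. At dyf-3, dyf-11, che-13 and osm-12 the pooled summit is within 25 bp of an X-box. The summits of che-13 and osm-12 have signals near the lowest of the pooled list.

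The listed summits were close to gene starts. Of the 17 members with a pooled summit, 10 had their highest within 200 bp of the start (58.8%, against 38.5% of the 5588 genes with one), and the median distance was 159 bp, against 293 bp. In 12 of the 17 it lay upstream, in a window that reaches 1000 bp upstream and only 200 bp downstream. The 18 member summits in all fell in intergenic sequence (8), a 5′ UTR (4), an intron (3) or a 3′ UTR (3). Shares over all genes are not given here for side or place, so these counts only describe the members. The gene bodies held an optimal summit at 3 members, dyf-3, klp-11 and klp-20 (7.69%, background 3.40%), and a pooled one at 22 (56.4%, background 31.7%). No account was taken of gene length in these shares, and the dyf-3 summit is the same as its promoter summit. Apart from the peaks of klp-11, klp-20, daf-19 and dyf-3 already given, the highest summit in a gene body was 5595 bp into ift-81. Its signal was 32.4 pooled, 15.8 in replicate 1 and 15.5 in replicate 2. At nphp-4 the highest was 2701 bp from the start, with 26.4 pooled, 17.4 in replicate 1 and 6.71 in replicate 2. From the start of a member to the nearest optimal summit the median distance was 20212 bp, against 18661 bp over all protein-coding genes, and 9 members had one within 5000 bp (23.1%, against 19.4%).

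The X-box was common in these promoters whether or not FKH-10 was listed there. It was found in the windows of 20 of 39 members (51.3%), against 3.92% of all protein-coding genes (782 of 19973), and 20 of the 21 member sites lay within 200 bp of the start. These genes are known for the element, so the count describes the list. Another consensus form was found in 19 members (1.19% of all genes) and either form in 23 (4.37%). A pooled FKH-10 summit was found at 7 of the 20 members with an X-box (35.0%) and at 10 of the 19 without (52.6%). Over all protein-coding genes the shares were 31.3% with an X-box and 27.8% without. Optimal summits were found at 2 of the 20, daf-19 and dyf-3, and at 1 of the 19, klp-11. The transport genes osm-5, osm-6 and che-2, known DAF-19 targets, had an X-box and no pooled summit.

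Among the members with both, the pooled summit was often near the X-box, but which genes showed this changed with the replicate. The distance from the X-box centre to the nearest pooled summit was 0.5 bp at dyf-3, 0.5 bp at che-13, 3.5 bp at dyf-11, 21.5 bp at osm-12, 43.5 bp at ift-20, 81.5 bp at daf-19 and 588.5 bp at dyf-13. Thus 4 of 7 were within 25 bp (57.1%), against 25 of 245 genes with both (10.2%), and the medians were 21.5 and 271.5 bp. Of these 4, only dyf-3 was in the optimal set. The signals of che-13 (13.4) and osm-12 (12.7) were near the lowest pooled signal, 12.4, with −log10 q values of 0.0486 and 0.0256. For the peaks of single replicates that overlap the pooled peaks, the count within 25 bp was 3 of 6 in replicate 1 and 1 of 5, dyf-11, in replicate 2. In replicate 2 che-13 and osm-12 had no overlapping peak. In the whole list of replicate 1 it was 3 of 10 members with both (30%, background 7.94%), che-13, dyf-11 and osm-12. In that of replicate 2 it was also 3 of 10 (30%, background 7.02%), but dyf-11, dyf-17 and osm-5. Both features of the members lay nearer the start than usual, the summits as given above and the X-boxes with 95.2% within 200 bp against 38.6% of all X-boxes, and the part of this in the difference was not tested. At dyf-3 the distance was wider in both replicates, 26.5 bp in replicate 1 and 84.5 bp in replicate 2, and at daf-19 it was wider in replicate 1 alone, 175.5 and 81.5 bp. At dyf-11, where the X-box lies in capitals near the middle of the stretch given above, they were 17.5 and 3.5 bp.

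Short sequence words were searched around the member summits. Within 50 bp to each side, none of the 18 held the canonical word GTAAACA, its variant GTAAATA, the weaker form ATAAACA or the related form ATAAATA on either strand (none lies within another), against 5.03% of all 2602 optimal summits, 8.49% of all pooled summits and 9.63% of pooled summits in promoter windows. With 18 windows a count of 0 allows a share of up to 16.7%, above each of these. At this width the members therefore cannot be set apart from other summits, and a missing word says only that these letters were not in the window. The GA-repeat word GAGAGAGA was found at 1 of 18, daf-19 (2.11% of all pooled and 6.69% of all optimal summits). An X-box was found at 5 of 18 (27.8%), against 0.397% of all pooled summits and 0.635% of pooled summits in promoter windows. The members are known for this element, so the count describes the list and is not a result about FKH-10. The median GC content of the member windows was 44.6%, between the 37.6% of all pooled and the 45.5% of all optimal summits.

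A second list of 58 other cilium genes, matched from 62 names, gave like shares of genes with a summit. An optimal promoter summit was found at 5 of 58 (8.62%, interval 2.86 to 19%, background 6.38%) and a pooled one at 22 (37.9%, background 28.0%). The IFT-A gene ift-43 had the highest signal, 87.7 pooled (rank 614), 56.1 in replicate 1 and 30.2 in replicate 2, but its summit lay 13 bp upstream of the Mediator subunit gene mdt-26 and 382 bp upstream of ift-43. The transition zone gene tmem-107 had 60.9 pooled, 19.6 in replicate 1 and 40.9 in replicate 2, with a summit shared with the ribosomal protein gene rps-26 and within 500 bp of the snoRNA gene F39B2.14. The basal body gene hyls-1 had 52.5 pooled, 21.8 in replicate 1 and 32.1 in replicate 2, shared with hpo-9. Only ttll-4, a tubulin glutamylase family gene (59.1 pooled, 27.5 in replicate 1 and 32.8 in replicate 2), and xbx-3 (42.7, 29.7 and 17.7) had the summit in no other protein-coding window. Of the 10 genes of this list with both an X-box and a pooled summit, 0 had them within 25 bp, and the median distance was 181 bp. The members differed in this, with 4 of 7 and a median of 21.5 bp. Over all protein-coding genes with both the share was 10.2%, from which 0 among 10 genes cannot be set apart.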

How the data were processed

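The authors deposited narrowPeak lists on ce11 (the coordinates of WBcel235) for each of the 2 replicates, a list from both replicates pooled, and an optimal set cut by irreproducible discovery rate, per the labels. The deposited signal value per peak was used to rank and describe peaks within a list, and the deposited −log10 q only as an alternative rank. The deposited p-value column holds no values. Not given in the sources used here are the aligner, the peak caller, their versions, the threshold and the read depth. The labels name a possible control experiment, which was not analysed here, and the lists on ce10 were not used.

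All positions are 1-based on WBcel235. Gene starts were taken from Ensembl release 115 and sequences from RefSeq. A summit counted for every protein-coding gene whose window held it, and replicate values are those of the highest-signal peak overlapping the pooled peak by at least 1 bp. The X-box was searched by its consensus in a main form and in an alternative one that each match some sites the other does not, and the short words as letters, on both strands. Counts stand beside the share of all protein-coding genes, with no set test. With 1 group and no second condition no test between conditions could be made, and the spread between replicates is shown by both values. Genes that share a divergent or overlapping promoter share a summit and are not independent.

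The members, the second list and the words were chosen with earlier results of these data known. Values are given for every member with an optimal summit, for the 10 highest-signal of the others with a pooled summit and the lowest, and for second-list genes with an optimal summit; values of further members were chosen after they were seen. No annotated symbol matched cep-290, cil-1, bug-1 or xbx-7. The code (Python 3.11.15, pandas 2.3.3, numpy 2.4.6, scipy 1.17.1) was tested on simulated data.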

Additional observations from a re-analysis of the deposited data

How the results depend on the processing

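No paired analysis was possible because there was 1 group. For the members in the optimal set, a window of 2000 bp upstream to 500 bp downstream gave 5 (12.8%, background 8.93%), adding klp-20 and che-13, and the 1301 peaks of highest signal gave 1, klp-11 (2.56%, background 3.25%). Leaving out a replicate gave 3 to 3 members, klp-11, daf-19 and klp-20 each time, so dyf-3 was lost; a window of 500 bp upstream to 100 bp downstream gave 2 (klp-11 lost), peaks in the top of both replicates gave 2 (dyf-3 lost), and any overlap of the interval gave 4 (klp-20 gained). For the pooled list, that short window gave 11 (28.2%, background 18.7%) and its higher-signal part 8 (20.5%, background 17.7%). Single replicates gave 17 to 23 (43.6 and 59.0%, backgrounds 35.6 and 35.8%). For the second list the long window gave 8 (13.8%, background 8.93%) and the 1301 peaks 2 (3.45%, background 3.25%). Peaks in both replicates gave 3 (5.17%, background 4.63%) and single replicates 4 to 6 (6.90 and 10.3%, backgrounds 6.57 and 5.91%). By class, motors had 0 optimal genes with the short window and 2 with the long window, interval overlap or 1 replicate; transport particle genes had 2 with the long window and 0 with the 1301 peaks, both replicates or 1 replicate; daf-19 was lost with the 1301 peaks. Pooled motor genes numbered 0 (short), 5 (long) and 1 (higher-signal part), and BBSome genes 1 and 0 (short, higher-signal part). Pooled transition zone genes numbered 0, 3, 2 (overlap) and 0, with 0 to 5 by replicate, transport genes 5 (higher-signal part) and others 5 (long). The share of all genes moved with these settings too. For optimal summits it was 4.88% (short), 8.93% (long), 6.97% (overlap), 3.25% (1301 peaks), 4.63% (both replicates) and 5.91 and 6.57% (1 replicate). For pooled summits it was 18.7% (short), 42.1% (long), 32.1% (overlap), 17.7% (higher-signal part) and 35.8 and 35.6% (1 replicate). Within 100 bp, GAGAGAGA was at 2 of 18 summits (3.87% of all pooled and 11.8% of all optimal) and a forkhead word at 0. Forkhead words were there at 11.3% of all optimal and 16.4% of all pooled summits. A count of 0 among 18 allows up to 16.7%, above these shares but below that of pooled summits in promoter windows. The statement made within 50 bp, that the limit lies above each share, therefore does not hold within 100 bp, and no test was made. Members with an X-box and a summit within 25 bp numbered 3 to 3 with a replicate left out, with dyf-11 the one gene found by both replicates. In all, 24 of 31 settings for the main counts kept them within 1.5 times, and the causes were not tested. This compares counts only, and the genes could differ. The whole list of replicate 2 also gave 17, but bbs-8, che-12, che-13, kap-1, mks-1, osm-12 and osm-3 were lost. Gained there were bbs-5, bbs-9, daf-10, dyf-1, dyf-17, klp-20 and osm-5. The settings include X-box counts, which use no FKH-10 peaks. The rank by p-value was not run; a rank by q, added after seeing the data, gave 3 members. The scale of the signal and the depth are unknown, which limits every statement on weak peaks.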
